A study of Mus musculus with 16 samples.

Results

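Bone marrow-derived macrophages were compared with and without lipopolysaccharide (LPS) in a medium that lacked serine. The comparison took 8 of the 16 libraries of the series, chosen by their labels alone, 4 with LPS and 4 without, and covered 11004 expressed genes. Marrow of C57BL/6J mice, for which the labels give no genetic change, was grown with macrophage colony-stimulating factor at 20 ng/mL, and the cells were harvested on day 6 and moved to minimum essential medium (MEM). The untreated group was in MEM without serine, and the LPS group received 100 ng/mL of LPS in that medium. RNA was extracted 4 h later. The other 8 libraries, with and without LPS in complete MEM, shared the estimate of the spread and served the comparison of the LPS effect between media. How long the cells were without serine before LPS is not given in the sources used here. Each library carries a replicate number from 1 to 4, and libraries of the same number were paired. Replicate 1 had no count of Xist and 2391 and 1311 counts of Y-linked genes in the untreated and LPS libraries, while replicates 2 to 4 had 351 to 1477 counts of Xist, so sex and replicate 1 cannot be told apart. By these counts replicate 1 did not share its animal with replicates 2 to 4. No label says that replicates came from separate animals, so each p-value rests on a spread between libraries that may be technical among replicates 2 to 4.

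LPS is a glycolipid on the surface of Gram-negative bacteria, and macrophages detect it through Cd14, Ly96 (MD-2) and Toll-like receptor 4. The receptor signals through Myd88 to NF-kB and MAP kinases, which switch on cytokine and chemokine genes, and through a second adaptor to interferon regulatory factors and interferon beta, whose receptor then switches on antiviral genes through STAT proteins. Serine is an amino acid that cells use for protein, for glycine and glutathione, and for the folate-bound carbon units of nucleotide synthesis, and cells can take it up or make it from a glycolytic intermediate.

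The untreated libraries held 2871477 to 10043362 counts and the LPS libraries 6573849 to 7892215. Untreated replicate 4 was shallow. It detected 12900 genes, where untreated replicates 1 to 3 detected 14997 to 16031, and its 20 most abundant genes held 23.1% of its counts, where theirs held 14.6% to 17.0%. Each level is in CPM, a count over its library size after TMM adjustment, and 4 values in a row stand for replicates 1 to 4. Changes are log2 fold changes from a quasi-likelihood fit in edgeR that has the replicate number as a block. The value after ± of a change is an SE worked back from the F test, the absolute change over the square root of F. For genes with few counts in a group it can be smaller than the counting error, as for Cxcl3 with 6 counts untreated. A gene was called at a Benjamini-Hochberg adjusted p under 0.05. The 14 macrophage markers, among them Csf1r, Adgre1 and Lyz2, were detected in both groups and summed to 18597 to 32238 CPM untreated and 23307 to 30340 CPM with LPS. Neutrophil markers (Ly6g at 0) summed to 13.9 to 146 CPM untreated and 15.4 to 92.6 CPM with LPS, and B and plasma cell markers (Pax5 at 0) to 1.29 to 3.04 and 0.152 to 1.56 CPM. Marker sums of 4 other types were higher with LPS, with T and NK cell markers (Cd3d, Cd3e, Cd3g, Klrb1c and Ncr1 at 0) at 0.0797 to 0.337 against 1.67 to 4.87 CPM, dendritic cell markers at 2.23 to 2.47 against 8.57 to 12.025 CPM, mast cell and basophil markers (Fcer1a, Mcpt4 and Ms4a2 at 0) at 0.675 to 5.58 against 16.6 to 21.006 CPM, and stromal markers (Lum at 0) at 1.01 to 20.9 against 19.9 to 43.0 CPM, which overlap. Single members did not all rise. Of 2 tested mast cell and basophil genes 1 was higher and 1 lower, and of 5 stromal genes 2 were higher and 3 not called. The dendritic cell marker Flt3 went from 19 to 3 counts and Zbtb46 from 10 to 44. Only 1 T and NK cell gene was tested, and it was higher. The part of these cell types in the results was not tested. Since these are bulk samples, fewer cells of a type and less RNA per cell cannot be told apart.

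In total 3237 genes were higher (29.4% of those tested) and 3482 lower (31.6%) with LPS, so that 61.1% were called. At a change of at least 2-fold the counts were 1792 higher (16.3%) and 1722 lower (15.6%). Large changes were mostly rises, with 495 genes at least 8-fold higher against 118 at least 8-fold lower, and 176 against 12 at 32-fold. The 495 genes took 0.846% to 1.82% of the counts of the untreated libraries and 17.8% to 20.0% of those of the LPS libraries. Of the genes called, 3089 of the higher ones and 3063 of the lower ones moved the same way in each of the 4 pairs, and the groups did not overlap for 2785 genes with LPS above (25.3%) and 2468 with LPS below (22.4%).

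**Figure D1:**
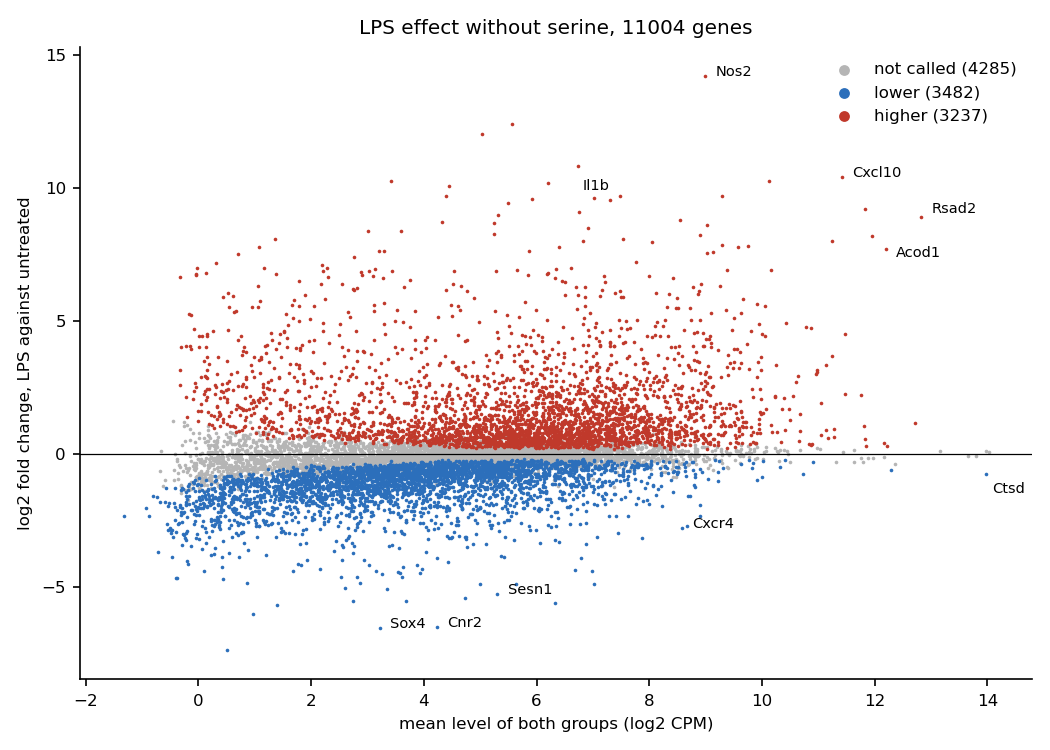
Log2 fold change with LPS without serine (vertical axis) against the mean level of both groups in log2 CPM (horizontal axis), 1 point per tested gene, with genes called higher in red, called lower in blue and not called in grey. The 3237 red points reach a log2 fold change of 14.21 (Nos2), the blue points named Cnr2 and Sox4 lie at -6.49 and -6.56, and Cxcl10 combines a change of 10.39 with one of the higher levels.

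A TMM factor assumes that most genes do not change. The median log2 fold change of all 11004 genes was -0.11 on this scale and -0.68 when libraries were scaled to their total counts, and total-count scaling gave 1788 higher and 6809 lower genes, 20.8% against 48.2% of calls being higher. Of those calls 116 ran against the TMM-based ones. A change near 0 therefore depends on the scale, and groups whose direction does are named as such.

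Promoters of some genes that rose are shown first, picked because they hold at least 1 of 2 short motifs known from these pathways. Named genes without a match are not shown, so these windows do not tell how often such genes hold a motif. NF-kB dimers bind a site written as GGGANNTTCC, and STAT and IRF factors of the interferon response bind the interferon-stimulated response element (ISRE), written as GAAANNGAAA. Both were searched on both strands in the 250 bases before each start in RefSeq (GRCm38.p6), where the motifs cannot contain each other and a near-palindromic NF-kB site can match on both strands 1 base apart. Of the tested genes 8656 had a window, and 1.52% of these held the NF-kB letters and 3.56% the ISRE letters. Among genes at least 8-fold higher the shares were 3.51% and 14.6% of 370 genes, and among those at least 32-fold higher 7.03% and 26.6% of 128 genes. Genes called lower had shares of 1.42% and 2.46%, and of the 85 with a window that fell at least 8-fold, 0 held either motif. Of all 32851 RefSeq windows 1.21% held the NF-kB letters and 2.98% the ISRE letters. A rising share was not particular to these 2 motifs. The TATA box letters TATAAA, searched in the same way, were held by 7.43% of the tested genes with a window, 13.8% of those at least 8-fold higher and 22.7% of those at least 32-fold higher, and by 6.27% of genes called lower and 11.8% of those that fell at least 8-fold. Of all RefSeq windows 12.4% held them. Such matches are descriptions of the sequence, not of binding. The windows of 3 neighbouring chemokine genes, Cxcl1, Cxcl2 and Cxcl3, are given to show the same capital run at nearly the same place, 60, 86 and 62 bases before the start. Those of Il6 and Nfkbia, a cytokine and an inhibitor of NF-kB, hold the motif at 34 and 19 bases. Cxcl10 holds both motifs, and Ifit1, Isg15, Rsad2 and Gbp2, which are interferon-stimulated, hold the ISRE. Sequences run 5′ to 3′ along the strand of the gene, with motif matches on either strand in capitals.
Cxcl1 (chr5:90890995-90891244, plus strand): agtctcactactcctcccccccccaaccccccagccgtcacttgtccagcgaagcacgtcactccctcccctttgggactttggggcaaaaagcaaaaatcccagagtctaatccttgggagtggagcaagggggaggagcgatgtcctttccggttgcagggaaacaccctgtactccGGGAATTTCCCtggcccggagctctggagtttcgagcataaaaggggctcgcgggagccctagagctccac
Cxcl2 (chr5:90903649-90903898, plus strand): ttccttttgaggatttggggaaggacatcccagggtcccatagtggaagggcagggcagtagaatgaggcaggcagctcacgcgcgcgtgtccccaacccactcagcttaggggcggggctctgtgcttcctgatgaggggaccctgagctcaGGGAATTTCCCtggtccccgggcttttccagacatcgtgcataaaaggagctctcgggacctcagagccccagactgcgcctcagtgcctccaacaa
Cxcl3 (chr5:90785851-90786100, plus strand): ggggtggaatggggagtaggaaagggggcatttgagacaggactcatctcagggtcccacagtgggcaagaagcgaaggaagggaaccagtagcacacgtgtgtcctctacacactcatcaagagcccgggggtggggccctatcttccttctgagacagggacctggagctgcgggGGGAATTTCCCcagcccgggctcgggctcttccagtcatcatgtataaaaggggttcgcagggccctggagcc
Il6 (chr5:30012864-30013113, plus strand): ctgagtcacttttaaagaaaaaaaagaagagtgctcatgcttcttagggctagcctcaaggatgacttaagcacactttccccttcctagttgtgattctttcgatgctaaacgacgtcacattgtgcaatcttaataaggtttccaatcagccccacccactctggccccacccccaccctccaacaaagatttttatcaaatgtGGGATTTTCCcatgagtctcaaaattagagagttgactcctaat
Nfkbia (chr12:55492648-55492897, minus strand): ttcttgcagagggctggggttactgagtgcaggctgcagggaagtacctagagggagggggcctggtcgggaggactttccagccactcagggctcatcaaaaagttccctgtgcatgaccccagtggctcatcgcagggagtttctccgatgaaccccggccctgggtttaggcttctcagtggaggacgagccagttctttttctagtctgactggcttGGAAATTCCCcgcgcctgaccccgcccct
Cxcl10 (chr5:92348890-92349139, minus strand): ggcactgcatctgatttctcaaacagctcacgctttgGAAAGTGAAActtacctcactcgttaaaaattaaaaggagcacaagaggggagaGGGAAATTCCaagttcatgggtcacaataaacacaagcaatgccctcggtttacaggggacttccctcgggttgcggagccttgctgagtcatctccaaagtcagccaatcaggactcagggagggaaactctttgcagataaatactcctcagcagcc
Ifit1 (chr19:34640639-34640888, plus strand): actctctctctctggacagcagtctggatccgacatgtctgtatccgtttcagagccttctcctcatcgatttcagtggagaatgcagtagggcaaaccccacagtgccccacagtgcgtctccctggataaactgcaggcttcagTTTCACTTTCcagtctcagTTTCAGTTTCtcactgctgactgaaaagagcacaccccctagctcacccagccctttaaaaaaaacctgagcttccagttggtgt
Isg15 (chr4:156200819-156201068, minus strand): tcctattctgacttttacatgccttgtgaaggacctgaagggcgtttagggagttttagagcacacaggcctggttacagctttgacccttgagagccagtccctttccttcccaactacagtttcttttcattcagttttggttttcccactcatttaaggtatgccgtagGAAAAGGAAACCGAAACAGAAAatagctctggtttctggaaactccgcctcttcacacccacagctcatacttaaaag
Rsad2 (chr12:26456453-26456702, minus strand): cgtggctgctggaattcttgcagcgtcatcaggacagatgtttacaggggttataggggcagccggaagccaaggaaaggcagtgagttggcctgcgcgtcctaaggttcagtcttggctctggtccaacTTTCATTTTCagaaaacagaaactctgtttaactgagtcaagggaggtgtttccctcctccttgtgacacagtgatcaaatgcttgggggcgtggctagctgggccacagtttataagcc
Gbp2 (chr3:142620413-142620662, plus strand): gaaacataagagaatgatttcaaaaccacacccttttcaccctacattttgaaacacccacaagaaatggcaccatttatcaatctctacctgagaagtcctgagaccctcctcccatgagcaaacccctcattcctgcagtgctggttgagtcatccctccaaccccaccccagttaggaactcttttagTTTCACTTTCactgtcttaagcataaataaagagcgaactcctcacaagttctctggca

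Most genes of the LPS sensing list were higher with LPS, receptors and adaptors among them. Of 27 tested members of the sensing list 21 were higher and 4 lower (median 1.12), and 13 were higher and 6 lower with total-count scaling. Cd14, which hands LPS to the receptor complex, stood at 475, 285, 274 and 485 CPM in untreated replicates 1 to 4 and at 3187, 2533, 2651 and 2819.8 CPM with LPS. Tlr2, a receptor for bacterial lipopeptides, went from 679, 363, 331 and 369.7 to 3566, 3638, 3413 and 3679 CPM. In both genes every LPS library lay far above every untreated one, and the log2 fold changes were 2.92 ± 0.14 and 3.09 ± 0.17 (edgeR adjusted p = 1.22e-09 and 3.40e-09). Tlr4, the LPS receptor, held 90.9, 72.9, 84.8 and 37.1 CPM untreated and 104, 105, 109.7 and 115 CPM with LPS. Its rise of 0.61 ± 0.19 was 0.38 without untreated replicate 4, its lowest library, and 0.03 with total-count scaling (adjusted p = 0.899). Tlr1, the partner of Tlr2, and Tlr3, a receptor for double-stranded RNA, rose by 3.73 ± 0.23 and 4.58 ± 0.25, and Myd88 by 2.74 ± 0.14. Irak3, an inhibitory kinase of the pathway, rose by 2.77 ± 0.13, and Ly96 by 0.87 ± 0.17 with overlapping groups, or 0.305 with total-count scaling (adjusted p = 0.0863). Tlr13, a receptor for bacterial ribosomal RNA, and Tab1, a kinase adaptor, fell by 1.23 ± 0.16 and 1.34 ± 0.19 on the log2 scale, with every LPS library below every untreated one.

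NF-kB genes rose together, the inhibitors among them. Of 22 members 20 were higher and 0 lower (median 2.51), and 18 higher and 2 lower with total-count scaling. Nfkbia, which encodes the inhibitor IkBα, stood at 117, 91.1, 97.6 and 230.4 CPM untreated and 1097, 826, 950.2 and 938 CPM with LPS. Nfkbiz, an atypical inhibitor family member needed for a set of secondary genes, went from 16.8, 10.5, 8.46 and 14.2 to 951, 580.5, 641 and 649.5 CPM. Replicate 1 was the highest LPS library for both, and the groups did not overlap. The changes were 2.896 ± 0.204 and 5.84 ± 0.14 (edgeR adjusted p = 3.93e-08 and 5.32e-12), and Nfkbie, a further inhibitor, rose by 4.17 ± 0.12. Tnfaip3, which encodes the deubiquitinase A20 that brakes the pathway, rose by 4.32 ± 0.198. The subunit genes Nfkb1 and Rel rose by 3.41 ± 0.10 and 2.95 ± 0.18.

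Of 22 feedback genes, which encode phosphatases, SOCS proteins and factors of mRNA decay, 17 were higher and 2 lower (median 1.78). Socs3, an inhibitor of cytokine receptor signalling, stood at 7.09, 6.83, 4.74 and 3.04 CPM untreated and 1107, 995, 1180.2 and 1165 CPM with LPS, a change of 7.61 ± 0.204. Its 4 LPS libraries lay close together, far above the untreated ones. Socs1 rose by 6.14 ± 0.34, Pde4b, a phosphodiesterase that degrades cyclic AMP, by 4.69 ± 0.205, and Zc3h12a, a ribonuclease of cytokine mRNAs, by 3.16 ± 0.14. Zfp36 (tristetraprolin), which binds AU-rich elements of cytokine mRNAs, rose by 2.14 ± 0.12. Its relatives went the other way, with Zfp36l1 at 29.01, 18.8, 36.3 and 57.001 CPM untreated and 2.74, 1.73, 2.43 and 1.75 CPM with LPS, and Zfp36l2 at 479, 431, 454 and 241 CPM untreated and 77.9, 122, 120.2 and 115 CPM with LPS. Neither pair of groups overlapped, and the changes were -3.92 ± 0.24 and -1.903 ± 0.23. The MAP kinase phosphatases Dusp2 and Dusp1 rose by 3.96 ± 0.28 and 1.42 ± 0.19.

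AP-1 and related factors were mixed at this time point. Of 22 members 12 were higher and 2 lower (median 0.58), and 9 were higher and 6 lower with total-count scaling. Junb, Batf and Batf2, which pair with other AP-1 proteins, rose by 1.85 ± 0.12, 4.27 ± 0.19 and 5.41 ± 0.34, Atf3 by 1.21 ± 0.15, and the zinc-finger genes Klf6 and Klf7 by 2.12 ± 0.105 and 3.31 ± 0.22. Fos and Jun were the members that fell. Fos stood at 241, 154, 133 and 152 CPM untreated and at 56.6, 57.7, 58.1 and 52.4 CPM with LPS, and Jun at 96.9, 90.2, 96.3 and 83.98 CPM untreated and 38.4, 60.3, 56.1 and 53.2 CPM with LPS. The LPS libraries lay below every untreated one for both genes, with changes of -1.56 ± 0.16 and -0.85 ± 0.16. Egr1, an immediate early gene, was not called (and was lower at -0.83 with total-count scaling, adjusted p = 0.012), at 1.75 to 4.11 CPM with LPS against 3.19 to 5.06 CPM.

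Cytokine genes made up one of the groups with the largest rises. Of 28 listed genes 21 were tested, of which 19 were higher and 1 lower (median 5.41, or 5.20 with Il6, Il12a and Il12b at their bound). Il6 had no count in any untreated library and 67.7, 128, 105 and 78.5 CPM with LPS, a rise of at least 1050.1-fold when 3 counts are taken as the limit for the untreated group. Il12b, the p40 chain shared by interleukin-12 and interleukin-23, also went from no count to 71.7, 71.95, 72.5 and 45.2 CPM, a rise of at least 735-fold. Replicate 4 was the lowest LPS library for Il12b and replicate 1 for Il6. Il1b (ENSMUSG00000027398, chromosome 2, 129364570 to 129371139, minus strand), which encodes IL-1β, stood at 0.877, 0.0989, 0.128 and 0.675 CPM untreated and at 447, 296, 355 and 331 CPM with LPS. Replicate 1 was the highest in both groups, and the change was 9.68 ± 0.31 (edgeR adjusted p = 3.52e-11). Its neighbour Il1a went from 0.717, 0.396, 0.256 and 0 to 471, 265, 299 and 224 CPM, a change of 9.54 ± 0.205. No other tested gene lies within the 71.5 kb that the 2 genes span. Il1rn, which encodes the antagonist of their receptor, reached 1282 to 1761 CPM from 20.9 to 35.8 CPM, a change of 5.82 ± 0.16.

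Tnf (chromosome 17, 35199381 to 35202007, minus strand) went from 22.1, 12.8, 9.36 and 19.2 to 1525, 1104, 1144 and 1028 CPM, a change of 6.298 ± 0.18. Il27, a regulator of T cells, and Il10, an anti-inflammatory cytokine, rose by 8.98 ± 0.35 and 5.41 ± 0.27, and Il15, which sustains natural killer cells, by 6.03 ± 0.28. Il18, an IL-1 family member processed by caspase-1, rose by 2.82 ± 0.22. The TNF family members Tnfsf9 and Tnfsf15 were higher as well, the first by 5.19 ± 0.32 and the second from 3 counts over the untreated group to 7.601 to 27.1 CPM, for which the ratio was 209 (95% counting interval 71.2 to 1019.5). Vegfa, an angiogenic factor, was the member that fell, from 89.5, 33.9, 44.2 and 36.8 to 25.1, 25.1, 33.3 and 30.01 CPM, at -0.78 ± 0.29 (edgeR adjusted p = 0.0347). That call was lost without untreated replicate 1 (-0.48), without LPS replicate 1 (-0.54) and without LPS replicate 2 (-0.83). Ifnb1, the interferon beta gene, did not pass the filter on low counts and had 36 counts over the LPS libraries and 0 over the untreated ones. Csf2, Csf3 and Il23a had 9, 10 and 10 counts with LPS.

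Several chemokine genes that rose lie near each other on the genome. The stretches given here, and below for the Ifit and Gbp genes, run from the first to the last of genes chosen by name. Genes outside them were not examined, so the counts inside do not test whether rises cluster. On chromosome 5 the 3 tested genes between 90786103 and 90905909 were Cxcl3, Cxcl1 and Cxcl2, ligands that attract neutrophils, and their 4 LPS libraries were spread widely. Cxcl3 stood at 0.398, 0.0989, 0 and 0 CPM untreated and at 285, 101, 49.3 and 50.3 CPM with LPS. Cxcl1 stood at 0.478, 0, 0.128 and 0 CPM untreated and 143, 79.6, 40.7 and 40.1 CPM with LPS, and Cxcl2 at 2.31, 1.39, 0.513 and 1.35 CPM untreated and 740.2, 311, 218 and 206 CPM with LPS. Replicate 1 was the highest LPS library for the 3 genes, whose groups did not overlap and whose changes were 9.58 ± 0.21, 8.69 ± 0.36 and 8.07 ± 0.23. Further along the chromosome, the 3 tested genes between 92321331 and 92365485 were Cxcl9, Cxcl10 and Cxcl11, which interferon induces. Cxcl9 and Cxcl10 encode ligands of the receptor Cxcr3, while Cxcl11 is annotated as a polymorphic pseudogene. Cxcl10 went from 5.82, 0.989, 7.57 and 2.698 to 4406, 5016, 6623 and 5826 CPM, a change of 10.39 ± 0.51 (edgeR adjusted p = 1.16e-09). Replicate 1, the highest for Cxcl1 to Cxcl3, was the lowest LPS library for Cxcl10. Cxcl11 and Cxcl9 rose by 9.41 ± 0.33 and 6.26 ± 0.55 to 67.6 to 106 and 16.6 to 39.8 CPM. Their untreated levels rest on 4 and 10 counts, all in replicate 1. Cxcl16, a membrane-bound chemokine, rose by 1.31 ± 0.17. In the CXC list 7 of 9 tested members were higher and 1 lower (median 8.07).

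Of 10 tested CC chemokine genes 8 were higher and 0 lower (median 6.80), and 10 were higher without untreated replicate 4. The monocyte attractants Ccl2 and Ccl7 stand next to each other on chromosome 11, with Ccl12 as the other tested gene between 82035571 and 82103400. Ccl2 went from 0.717, 0.693, 0.385 and 0.675 to 151, 304, 326 and 176 CPM and Ccl7 from 0.239, 0.198, 0.385 and 1.35 to 123, 259, 304 and 177 CPM. Replicates 2 and 3 were the highest LPS libraries for both, and the changes were 8.501 ± 0.29 and 9.09 ± 0.28, with 6.73 ± 0.33 for Ccl12. In a second stretch of the chromosome, from 83525778 to 83664683, 4 of 5 tested genes were higher. Ccl3 and Ccl4, which encode macrophage inflammatory proteins, rose by 7.77 ± 0.20 and 8.22 ± 0.28, Ccl3 from 7.41, 6.63, 6.41 and 7.76 to 1839.9, 1523, 1475 and 1252 CPM. Ccl5, with 62.7 to 137 CPM before LPS the most abundant of these 3 in untreated cells even per length of gene, rose by 3.82 ± 0.18. Ccl22, on chromosome 8, rose by 6.87 ± 0.28.

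Receptors for chemokines went both ways, with 4 of 7 tested genes higher and 3 lower (median 0.47), and 3 and 3 with total-count scaling (median -0.10). Ccrl2, a receptor-like protein that does not signal in the usual way, rose by 5.48 ± 0.13 to 742 to 877 CPM. Cx3cr1 and Ccr2, found on monocytes, changed by -2.32 ± 0.17 and -1.53 ± 0.19, from 21.8 to 31.8 and 13.8 to 19.9 CPM to 3.501 to 8.15 and 4.29 to 7.63 CPM. Cxcr4 (chromosome 1, 128588199 to 128592293, minus strand), the receptor of the retention signal Cxcl12, stood at 772, 641, 661 and 580.5 CPM untreated and at 126, 87.6, 74.9 and 103 CPM with LPS. The groups stood far apart, and the change was -2.78 ± 0.11 (edgeR adjusted p = 2.01e-10).

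**Figure D2:**
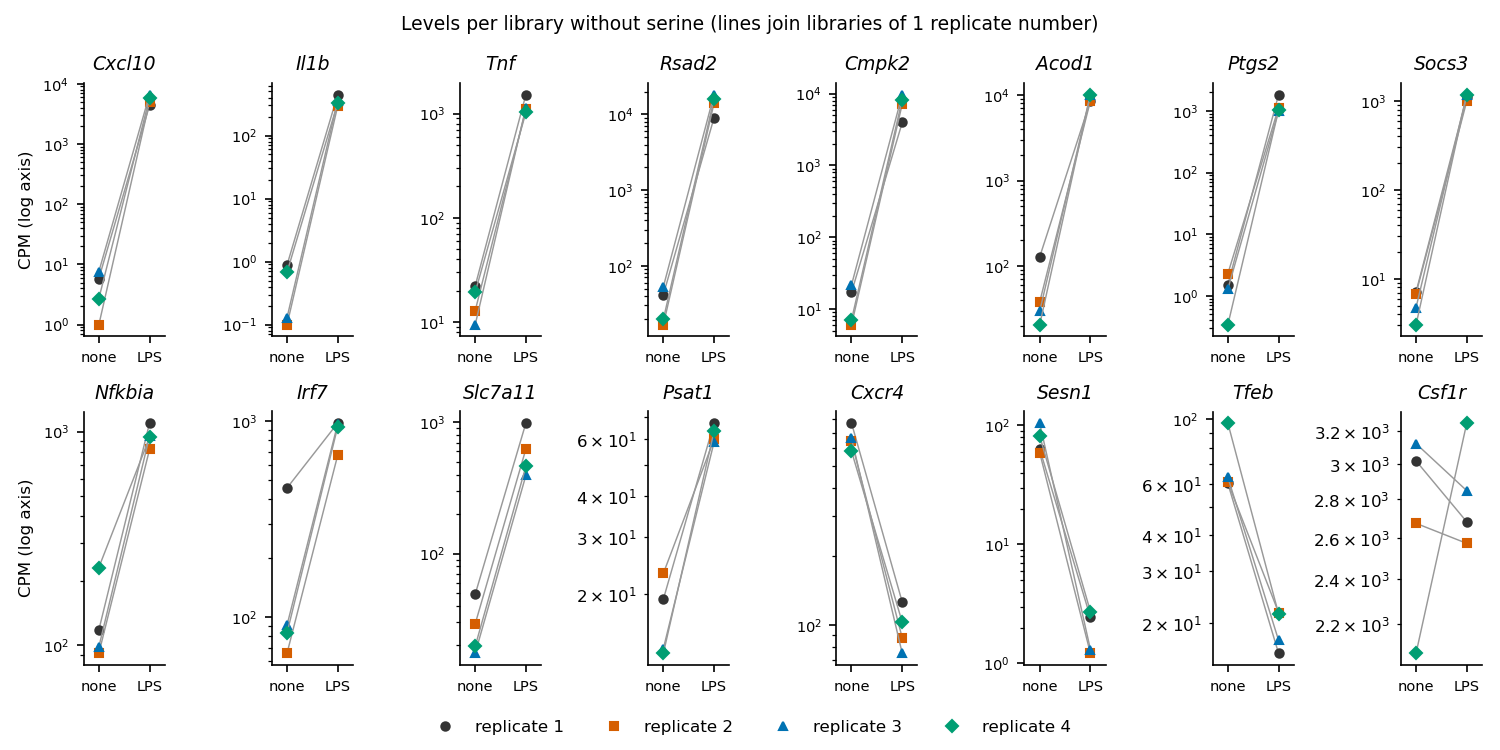
CPM on a log axis of 16 genes in each untreated (none) and LPS library without serine, with a line joining the 2 libraries of each replicate number. Cxcl10 rises from 0.989 to 7.57 CPM to 4406 to 6623 CPM, Cxcr4 falls in the 4 pairs, Irf7 starts high in replicate 1, and Csf1r rises in replicate 4 and falls in replicates 1 to 3.

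The interferon branch gave a group that moved one way. Of 38 tested interferon-stimulated antiviral genes 38 were higher (median 4.69), and 37 were higher without the replicate block or with total-count scaling. Rsad2 (viperin, chromosome 12, 26442753 to 26456452, minus strand), which makes a chain-terminating nucleotide, stood at 41.4, 16.5, 52.6 and 19.6 CPM untreated and at 9084, 14200, 18308 and 16030 CPM with LPS. Its neighbour Cmpk2, a nucleotide kinase, went from 17.1, 6.04, 21.7 and 7.08 to 3975, 7209, 9729 and 8281 CPM. In both genes untreated replicates 1 and 3 were above replicates 2 and 4, replicate 1 was the lowest LPS library, and the changes were 8.89 ± 0.52 and 9.199 ± 0.59. The genes Ifit1, Ifit2 and Ifit3, whose proteins bind viral RNA, lie with 3 other tested Ifit genes between 34550694 and 34650009 on chromosome 19, where 6 of 6 were higher. Ifit2 went from 74.2, 11.1, 39.8 and 12.1 to 5933, 6810.3, 10019 and 8613 CPM and Ifit1 from 26.5, 6.63, 20.005 and 31.4 to 3409, 4490.4, 5983 and 5406 CPM. Untreated replicate 2 was the lowest for both, and the changes were 8.18 ± 0.65, 8.003 ± 0.53 and, for Ifit3, 6.93 ± 0.58. Isg15, a ubiquitin-like modifier, rose by 6.27 ± 0.48, the helicase gene Ifih1 by 5.64 ± 0.33, the GTPase gene Mx2 by 6.93 ± 0.26, Oasl1 by 7.82 ± 0.45 and Ifi205 by 8.58 ± 0.599. Rnf213, a large ubiquitin ligase, rose by 4.49 ± 0.41, from 86.01 to 513 to 4705 to 5999.9 CPM. Bst2 (tetherin), which holds budding viruses on the membrane, had overlapping groups, a rise of 0.91 ± 0.28, and 0.37 with total-count scaling (adjusted p = 0.186). It missed the threshold without untreated replicate 2 (0.74) or replicate 3 (0.70), and without the replicate block (0.79).

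The 38 genes summed to 2684 CPM in untreated replicate 1 and to 1226, 1495 and 1517 CPM in replicates 2 to 4, and with LPS to 46925 CPM in replicate 1 and 56129, 72928 and 66187 CPM in replicates 2 to 4. Replicate 1 therefore had the highest sum before LPS and the lowest after it, and its median pair change was 3.52 against 4.64 to 5.29 in replicates 2 to 4. Of the 21 tested genes of interferon, JAK-STAT and IRF signalling 18 were higher and 0 lower (median 1.63), and 15 were higher and 2 lower with total-count scaling. Irf7, which amplifies interferon, stood at 456, 65.6, 91.2 and 83.3 CPM untreated and 978, 671, 970.4 and 937 CPM with LPS. Untreated replicate 1 stood far above the other untreated libraries, the groups did not overlap, and the change was 2.88 ± 0.42. Stat2, a transcription factor of the interferon response, rose by 4.55 ± 0.22, Jak2, the kinase of several cytokine receptors, by 4.61 ± 0.21, Irf1 by 4.03 ± 0.19, and Usp18, which removes Isg15 and damps the receptor, by 5.997 ± 0.35. Irf8, a factor of macrophage development, was not called at 0.22 ± 0.19.

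Guanylate-binding proteins and immunity-related GTPases attack vacuoles that hold microbes. Of 18 listed genes 15 were in the table by symbol and 14 were tested, and 14 of 14 were higher (median 6.33). Gbp2b stood at 3.75, 0.791, 1.795 and 0 CPM untreated and at 2013, 1899, 2694 and 2359 CPM with LPS, and Gbp2 at 40.9, 11.3, 18.3 and 12.1 CPM untreated and 1578, 2016, 2749 and 2702 CPM with LPS. Both lie on chromosome 3, where the 4 tested genes between 142496934 and 142638008 were higher, and they changed by 10.25 ± 0.42 and 6.89 ± 0.47. Igtp and Irgm1, on chromosome 11, and Iigp1 rose by 6.04 ± 0.22, 4.56 ± 0.28 and 7.95 ± 0.64. Members of these families are close copies of each other, and how reads shared between copies were counted is not given in the sources used here.

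Inflammasome genes, which prepare caspase-1 to mature IL-1β, split into 10 higher and 3 lower of 18 (median 0.76). Nlrp3, the sensor, stood at 49.3, 25.3, 31.2 and 17.2 CPM untreated and at 1409, 1204, 1225 and 1274 CPM with LPS, a change of 5.41 ± 0.21. Casp4, which encodes caspase-11, the sensor of cytosolic LPS, rose by 4.04 ± 0.15, Casp1 by 2.41 ± 0.18 and the pore-forming Gsdmd by 1.198 ± 0.104. Pycard, the adaptor ASC, was not called, at 27.5, 27.8, 26.9 and 90.4 CPM untreated and 30.6, 37.8, 53.8 and 49.1 CPM with LPS. Untreated replicate 4 was the highest of the 8 libraries, and without it Pycard stood at 0.55 (adjusted p = 3.99e-04). Nlrp1b and P2rx7, a channel opened by ATP, fell by 2.50 ± 0.26 and 1.02 ± 0.19 on the log2 scale.

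Enzymes of nitric oxide and itaconate production showed some of the largest single changes. Nos2 (chromosome 11, 78920787 to 78960254, plus strand) encodes the nitric oxide synthase of activated macrophages. It had 1 count over the 4 untreated libraries and 421, 997, 1466 and 1183 CPM with LPS, and the ratio was 32842 (95% counting interval 5894 to 1297200). Replicate 1 was the lowest LPS library. Acod1 (chromosome 14, 103046977 to 103056573, plus strand), which makes itaconate from a citric acid cycle intermediate, went from 128, 37.99, 29.6 and 20.6 to 8531, 8592, 10142 and 10133 CPM. Its untreated replicate 1 lay above the other untreated libraries, and the change was 7.71 ± 0.47. Per kilobase of gene length Acod1 reached 3564 CPM with LPS, the highest level among genes that rose at least 8-fold, followed by Cxcl10 at 2577 and Cmpk2 at 2282 CPM per kilobase. The arginine transporter gene Slc7a2 rose by 5.48 ± 0.197, Gch1, which supplies the cofactor of Nos2, by 3.36 ± 0.13, and Ass1, which rebuilds arginine, by 2.44 ± 0.26. Arg2, an arginase, and Odc1, the first enzyme of polyamine synthesis, rose by 1.18 ± 0.29 and 1.63 ± 0.12, Arg2 with overlapping groups and no call without the replicate block (1.04) or with total-count scaling (0.59, adjusted p = 0.087). Idh1, an isocitrate dehydrogenase, fell from 201, 202, 287 and 433 to 64.7, 91.9, 90.1 and 83.8 CPM, by 1.71 ± 0.15 on the log2 scale. The list as a whole went both ways, with 9 of 21 higher and 6 lower (median 0.10, and -0.46 with total-count scaling).

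In the prostaglandin and leukotriene list 4 of 14 were higher and 8 lower (median -0.53), and the 3 that rose most lie along a single route to prostaglandin E2. Pla2g4a releases arachidonic acid, Ptgs2 is the inducible cyclooxygenase, and Ptges the terminal synthase. Ptgs2 stood at 1.51, 2.28, 1.28 and 0.337 CPM untreated and at 1845, 1132, 1006 and 1030.2 CPM with LPS, and Ptges at 8.45, 3.86, 3.85 and 3.04 CPM untreated and 551, 428, 433 and 599 CPM with LPS. No libraries of the 2 groups overlapped, and the changes were 9.69 ± 0.31, 6.68 ± 0.27 and, for Pla2g4a, 4.25 ± 0.15. The constitutive cyclooxygenase gene Ptgs1 and the prostaglandin D synthase gene Hpgds fell by 1.63 ± 0.15 and 1.13 ± 0.11 on the log2 scale.

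Antimicrobial, oxidase and iron genes split into 10 higher and 3 lower of 22 (median 0.31), and with total-count scaling into 7 and 10 (median -0.25). Sod2, the mitochondrial superoxide dismutase, rose by 3.704 ± 0.14, Slc39a14, a zinc and iron importer, by 4.24 ± 0.19, Cybb, the catalytic subunit of the phagocyte oxidase, by 2.26 ± 0.14 and Lcn2, which binds bacterial siderophores, by 2.06 ± 0.15. Slc40a1 (ferroportin), the iron exporter, fell from 31.7 to 54.99 to 11.3 to 15.7 CPM, by 1.72 ± 0.12. Saa3, an acute-phase protein gene, ranged widely in untreated cells, with 103, 249, 422 and 1977 CPM, against 2103, 1392, 2227 and 2239 CPM with LPS. The groups overlapped through untreated replicate 4, and the rise was 2.099 ± 0.58, or 3.01 without that library. Lyz2, lysozyme, was not called at -0.08 ± 0.13, and without untreated replicate 4 it was called at 0.096 (adjusted p = 0.0299).

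**Figure D3:**
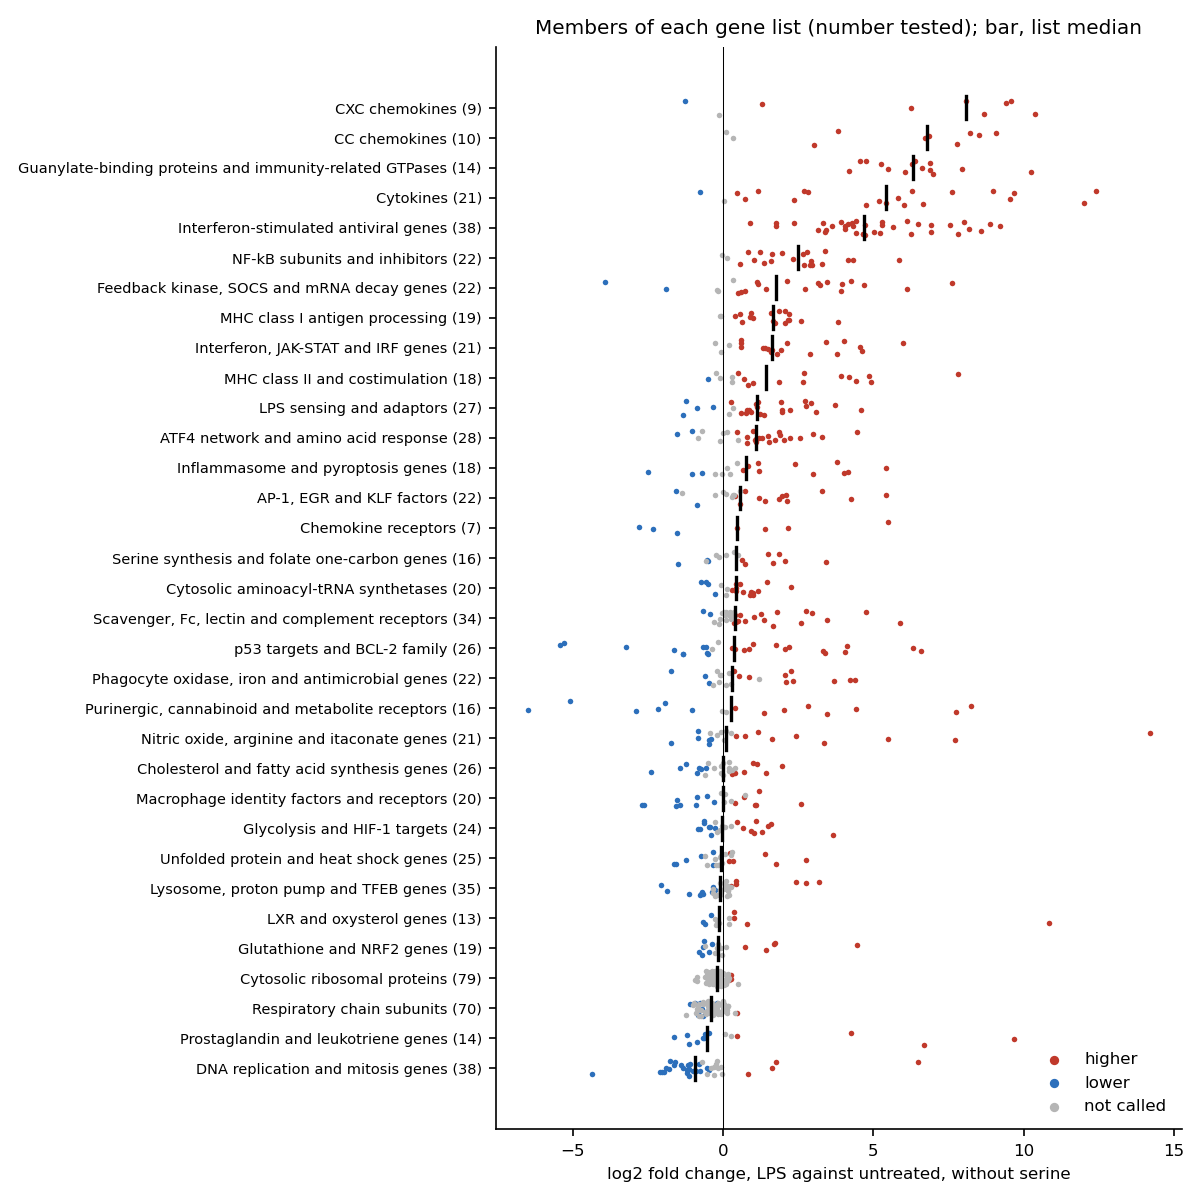
Log2 fold change with LPS without serine (horizontal axis) of each tested member of 33 gene lists, with genes called higher in red, called lower in blue and not called in grey, and a bar at each list median. The chemokine, GTPase, cytokine and interferon-stimulated lists have medians between 4.69 and 8.07, and the DNA replication and mitosis list has the lowest median, -0.94.

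Glycolysis genes did not move as a block, with 9 of 24 higher and 8 lower (median -0.05, 0.04 without untreated replicate 4 and -0.60 with total-count scaling). These counts are not far from the shares of all tested genes, 29.4% higher and 31.6% lower. Pfkfb3, which makes the activator of phosphofructokinase, stood at 77.5, 59.4, 64.4 and 20.9 CPM untreated and at 856, 515, 734 and 719 CPM with LPS, a change of 3.67 ± 0.27. The glucose transporter gene Slc2a1 rose by 1.11 ± 0.11 and Hif1a, a regulator of the pathway, by 1.04 ± 0.09. Enzymes lower in the pathway fell or did not pass. Tpi1 fell by 0.84 ± 0.14 and Eno1 by 0.61 ± 0.11 on the log2 scale, while Ldha stood at -0.06 ± 0.13.

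Among genes of serine synthesis and folate-bound carbon units 7 of 16 were higher and 3 lower (median 0.44, and -0.14 with total-count scaling). Psat1, the second enzyme of serine synthesis, stood at 19.3, 23.2, 13.6 and 13.2 CPM untreated and at 67.1, 59.8, 58.7 and 63.3 CPM with LPS. The LPS libraries lay close together, above every untreated library, and the change was 1.85 ± 0.15 (edgeR adjusted p = 1.67e-07). Phgdh, the first enzyme, went from 6.14, 13.8, 4.62 and 12.5 to 38.2, 34.7, 16.3 and 20.5 CPM, a change of 1.67 ± 0.29, and Psph, the last, did not pass, at 0.505 ± 0.24. Without untreated replicate 4 Psph was called, at 0.63 (adjusted p = 0.0148). The mitochondrial enzymes Mthfd2 and Shmt2 rose by 2.06 ± 0.19 and 0.73 ± 0.18, the second with overlapping groups and at 0.16 with total-count scaling (adjusted p = 0.403). The cytosolic enzyme Mthfd1 fell by 1.49 ± 0.17 on the log2 scale.

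ATF4 is a transcription factor that raises amino acid synthesis and uptake when amino acids are short. Of 28 tested genes of its network 20 were higher and 2 lower with LPS (median 1.10), and 15 were higher and 7 lower with total-count scaling. Atf4 stood at 329, 294, 216 and 341 CPM untreated and at 602, 489, 459.9 and 502 CPM with LPS, a change of 0.81 ± 0.13, and of 0.25 with total-count scaling (adjusted p = 0.0541). Slc7a11, the cystine importer, went from 48.8, 28.99, 17.3 and 19.6 to 989, 627, 395 and 462 CPM. Replicate 1 was the highest and replicate 3 the lowest library in both groups, and the change was 4.44 ± 0.12. Asns, asparagine synthetase, rose by 1.53 ± 0.13, Chac1, which degrades glutathione, by 2.57 ± 0.22, Slc7a5, a transporter of large neutral amino acids, by 2.24 ± 0.25, and Nupr1, a stress-induced chromatin factor, by 3.01 ± 0.19. Sesn2, a leucine sensor that restrains mTORC1, and the pseudokinase gene Trib3 rose by 1.12 ± 0.18 and 0.798 ± 0.19, the second with overlapping groups and no call without the replicate block (0.78) or with total-count scaling (0.24, adjusted p = 0.227). Got1 and Pck2, both of amino acid carbon metabolism, fell by 1.52 ± 0.13 and 1.01 ± 0.17 on the log2 scale.

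Aminoacyl-tRNA synthetases, which charge tRNAs, held 13 higher and 4 lower genes of 20 (median 0.44), and 6 higher and 7 lower with total-count scaling. Wars, the tryptophan enzyme, which interferon also induces, rose by 2.26 ± 0.18, and Rars, the arginine enzyme, by 1.47 ± 0.09. Dars, the aspartate enzyme, and Sars, the serine enzyme, fell by 0.72 ± 0.12 and 0.496 ± 0.13, Sars with overlapping groups, from 164, 182, 138 and 210.1 to 144, 142, 93.6 and 114 CPM. Unfolded protein and heat shock genes split into 6 higher and 6 lower of 25 (median -0.07), and into 3 and 19 with total-count scaling (median -0.64). On the TMM scale neither share was above that of all tested genes (29.4% higher and 31.6% lower). Hspa5 (BiP), the main chaperone of the endoplasmic reticulum, rose by 1.39 ± 0.08, while its partner Dnajb9 fell by 1.24 ± 0.15. In the cytosol, Hspa1b, which has a near-identical copy, rose by 2.76 ± 0.23, and Hsph1 fell by 1.62 ± 0.19.

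NRF2 and glutathione genes split into 5 higher and 6 lower of 19 (median -0.17), and into 4 and 14 with total-count scaling (median -0.75). Nfe2l2, which encodes NRF2, and Txnrd1, thioredoxin reductase, rose by 1.43 ± 0.105 and 1.74 ± 0.17, and Gclm, a subunit of the enzyme that starts glutathione synthesis, fell by 0.804 ± 0.098. In the cholesterol and fatty acid list 7 of 26 were higher and 7 lower, and 4 and 17 with total-count scaling (median -0.58). In both lists the shares with all libraries and TMM were not above those of all tested genes, 29.4% higher and 31.6% lower. Leaving out untreated replicate 4 gave 6 higher and 8 lower in the glutathione list and 8 and 10 in the cholesterol list. In that fit 3854 of all 11004 genes were higher and 3947 lower, so the lower shares of both lists were above that of all genes. The fatty acid genes Fasn and Scd2 changed by -1.22 ± 0.17 and -2.404 ± 0.36. Ch25h, which makes the oxysterol 25-hydroxycholesterol, had 3 counts over the untreated libraries and 180.4, 139, 262 and 272 CPM with LPS, and the ratio was 2338 (95% counting interval 799.7 to 11343). Abca1, a cholesterol exporter, rose by 0.82 ± 0.18, with 0.24 on total-count scaling (adjusted p = 0.311), and Apoe was not called at -0.14 ± 0.14.

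Lysosomal genes split into 6 higher and 10 lower of 35 (median -0.08), into 10 and 13 without untreated replicate 4, and into 3 and 29 with total-count scaling (median -0.64). With all libraries and TMM neither share was above that of all tested genes (29.4% higher and 31.6% lower). The related transcription factor genes Mitf and Tfec rose by 2.42 ± 0.19 and 2.77 ± 0.16, while Tfeb, the main activator of lysosomal genes, went from 60.2, 60.7, 63.2 and 97.1 to 15.7, 21.7, 17.4 and 21.4 CPM, a change of -1.87 ± 0.12. Rragd, a GTPase that brings nutrient signals to mTORC1, fell by 2.05 ± 0.12. The protease gene Ctsc rose by 3.195 ± 0.21. Ctsd, one of the most abundant mRNAs, stood at 12845, 16760, 17282 and 36064 CPM untreated and at 9062, 12694, 12545 and 12133 CPM with LPS. Untreated replicate 4 was at over 2 times the level of the rest, and the change of -0.77 ± 0.18 was -0.46 without that library.

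Among the lists, counts for ribosomal protein and respiratory chain genes moved furthest when untreated replicate 4 was left out. Of 79 cytosolic ribosomal protein genes 3 were higher and 0 lower (median -0.21). Without that library 70 were higher and 0 lower (median 0.28), and with total-count scaling 0 were higher and 78 lower (median -0.75). Rps18 stood at 97.2, 126, 136 and 687 CPM untreated and at 106, 146, 154 and 163 CPM with LPS. Rpl41 stood at 144, 177, 201 and 1516 CPM untreated and at 171, 199, 216 and 208 CPM with LPS. Of 70 respiratory chain genes 1 was higher and 9 lower (median -0.38), against 21 higher and 9 lower (median 0.05) without it and 0 and 67 with total-count scaling. Ndufa2, a subunit of complex I, stood at 34.7, 33.5, 34.6 and 376 CPM untreated and at 41.3, 39.2, 39.8 and 37.2 CPM with LPS. Atp5e, a subunit of the ATP synthase, stood at 53.6, 52.3, 51.2 and 753 CPM untreated and at 55.7, 56.5, 61.5 and 56.7 CPM with LPS. In these 4 genes, chosen after their values were seen, untreated replicate 4 was more than 4 times the level of the other 7 libraries, which lay within 2-fold of each other. None of the 4 was called with all libraries, and without untreated replicate 4 Rps18 and Ndufa2 were called higher, at 0.201 and 0.22 (adjusted p = 0.0163 and 0.0278). Short genes as a class also stood higher in that library. Among the 347 genes under 1 kb in the deposited table, untreated replicate 4 stood above the mean of replicates 1 to 3 by a median of 1.15 on the log2 scale, and among the 4584 genes over 8 kb below it, at -0.46. Tmsb4x, a short and abundant mRNA of an actin-binding protein, had 2416, 2095, 2539 and 9567 CPM untreated and 3024, 2582, 3067 and 3047 CPM with LPS, and Gm42418, an unnamed gene model, 1314, 851, 1499 and 8896 CPM untreated and 1457, 1454, 2091 and 2721 CPM with LPS. Neither was called, at -0.303 ± 0.32 and -0.304 ± 0.44, and without the library they stood at 0.302 and 0.54 (adjusted p = 4.79e-06 and 0.09). Actb, β-actin, rose by 1.18 ± 0.099, and by 1.19 without the library.

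**Figure D4:**
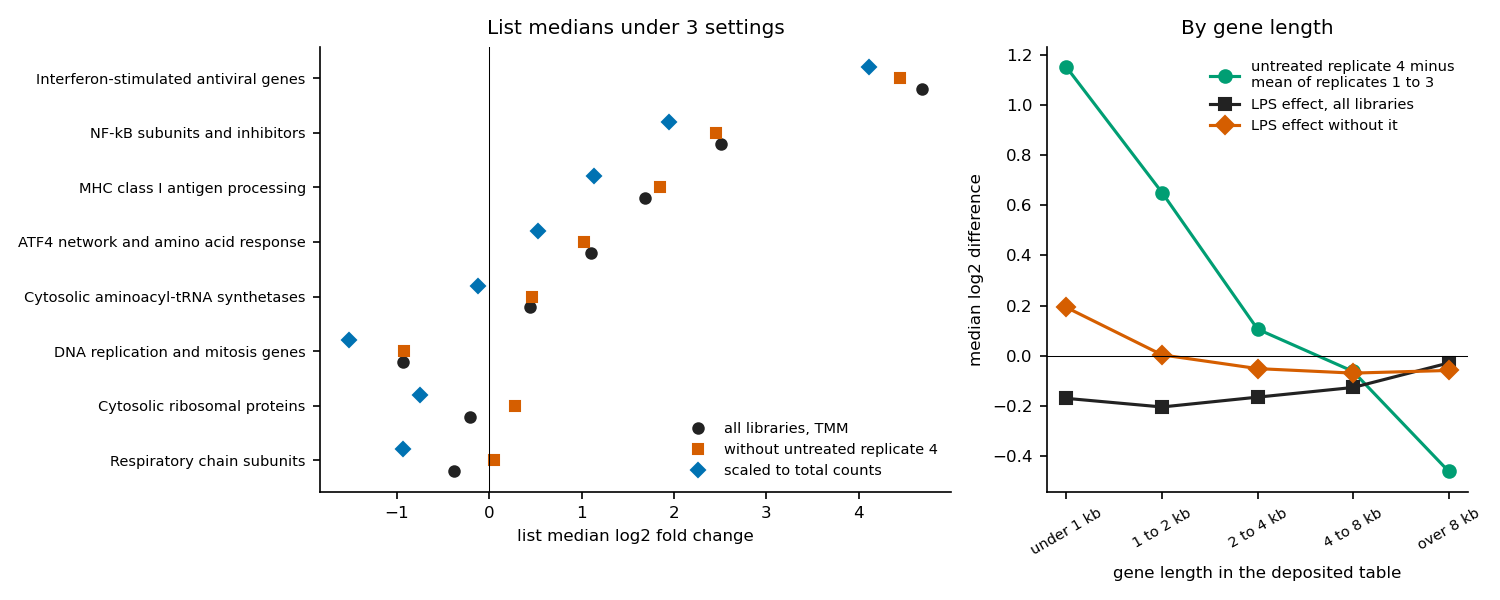
Left, median log2 fold change with LPS of 8 gene lists (rows) with all libraries and TMM factors, without untreated replicate 4, and with libraries scaled to total counts. Right, by gene length, the median log2 difference between untreated replicate 4 and the mean of untreated replicates 1 to 3, and the median LPS effect with and without that library. The ribosomal protein median moves from -0.21 to 0.28 without untreated replicate 4 and to -0.75 with total counts, while the interferon-stimulated median stays above 4.

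Genes of DNA replication and mitosis were lower as a group, with 24 of 38 lower and 4 higher (median -0.94, and -0.93 without untreated replicate 4). E2f2, an activator of S-phase genes, went from 30.3, 32.7, 28.1 and 27.7 to 1.22, 1.21, 1.68 and 1.75 CPM, and E2f1 fell by 1.14 ± 0.15. The groups did not overlap in either gene, and E2f2 changed by -4.34 ± 0.21. Mcm2, part of the replicative helicase, and Top2a, a topoisomerase, fell by 0.98 ± 0.18 and 0.47 ± 0.18, both with overlapping groups. Leaving out any of untreated replicates 1 and 2 and LPS replicates 2, 3 and 4 ended the call of Top2a, at -0.34 to -0.48, as did the fit without the replicate block (-0.53). Mki67, the Ki-67 gene, went the other way, from 33.4, 37.8, 26.3 and 13.8 to 168, 70.4, 72.9 and 88.1 CPM, a rise of 1.77 ± 0.27. Ccnd2, cyclin D2, rose from 1.43, 3.07, 1.92 and 0.675 to 131, 172, 222 and 165 CPM, by 6.503 ± 0.33.

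Genes of p53 and the BCL-2 family split, with 14 of 26 higher and 10 lower (median 0.36), and 11 higher and 12 lower with total-count scaling (median -0.21). Cdkn1a (p21), a cell cycle inhibitor, stood at 261, 219, 192 and 203 CPM untreated and at 2508, 2109, 2084 and 2149.8 CPM with LPS, a change of 3.34 ± 0.096. Mdm2, which degrades p53, rose by 1.75 ± 0.12 and the death receptor gene Fas by 4.06 ± 0.22. Sesn1, in contrast, fell from 63.4, 59.1, 105 and 81.6 to 2.44, 1.21, 1.31 and 2.73 CPM, by 5.28 ± 0.19. Cflar (c-FLIP), which blocks caspase-8, rose by 4.11 ± 0.16, Birc3 by 2.202 ± 0.11, Mcl1 by 0.86 ± 0.11 and Bcl2a1d, which has close copies, by 6.599 ± 0.25. Bcl2, which like Mcl1 holds back apoptosis, fell from 4.46, 4.45, 3.08 and 0.675 to 1.67, 1.21, 1.495 and 0.974 CPM, by 1.31 ± 0.31, with overlapping groups. Bmf, a pro-apoptotic member, fell from 69.02, 44.7, 59.2 and 34.4 to 1.52, 0.5202, 1.495 and 1.36 CPM, by 5.403 ± 0.23 (edgeR adjusted p = 3.57e-10), with every LPS library far below the lowest untreated one.

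Antigen presentation by MHC class I rose broadly, with 17 of 19 genes higher and 0 lower (median 1.68), and 13 higher and 2 lower with total-count scaling. Tap1, the peptide transporter, went from 74.2, 55.3, 60.1 and 51.9 to 669, 798, 987 and 963 CPM, by 3.81 ± 0.18. The immunoproteasome gene Psmb8 rose by 1.68 ± 0.25, and the abundant H2-K1 and B2m by 0.63 ± 0.13 and 0.57 ± 0.14 with overlapping groups, and by 0.08 and 0.02 with total-count scaling (adjusted p = 0.511 and 0.892). In the class II and costimulation list 13 of 18 were higher and 1 lower (median 1.44). Cd40, the receptor of a T cell ligand, stood at 6.61, 4.25, 4.104 and 7.76 CPM untreated and at 1198, 1087, 1397 and 1298 CPM with LPS, a change of 7.83 ± 0.21. Icam1 rose by 4.91 ± 0.19, Cd274 (PD-L1) by 4.43 ± 0.29, Cd83 by 4.19 ± 0.15, Cd86 by 2.68 ± 0.32 and Cd80 by 1.01 ± 0.17. Ciita, the activator of class II genes, rose by 1.88 ± 0.28, H2-Ab1 by 0.699 ± 0.18, Cd74 by 0.82 ± 0.11 and H2-Aa by 0.51 ± 0.102, with overlapping groups in the last 3. None of the 3 was called without the replicate block (0.63, 0.78 and 0.45), and with total-count scaling they stood at 0.14, 0.26 and -0.05.

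Receptors for uptake held 18 higher and 2 lower genes of 34 (median 0.39), and 11 higher and 13 lower with total-count scaling. Clec4e (Mincle), a receptor of mycobacterial glycolipid, stood at 219.7, 105, 77.5 and 124 CPM untreated and at 4179, 2959.9, 2946 and 3399 CPM with LPS, a change of 4.76 ± 0.17. Olr1, a receptor of oxidised lipoprotein, rose by 5.89 ± 0.21, the scavenger receptor gene Msr1 by 2.97 ± 0.13, the Fc receptor gene Fcgr1 by 1.796 ± 0.28 and the complement gene C3 by 3.45 ± 0.38. The mannose receptor gene Mrc1 had overlapping groups and a change of 0.44 ± 0.15, or -0.13 with total-count scaling (adjusted p = 0.508), and it was not called without LPS replicate 4 (0.33). Marco and C1qa were not called, at 0.08 ± 0.17 and -0.13 ± 0.20. Without untreated replicate 4 both were called higher, at 0.32 and 0.21 (adjusted p = 0.00164 and 0.0129), and with total-count scaling both were called lower, at -0.48 and -0.68.

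Macrophage identity genes split into 6 higher and 9 lower of 20 (median -0.01), and into 4 and 12 with total-count scaling (median -0.59). Leaving out untreated replicate 4 gave 7 higher and 12 lower (median -0.17). Of all tested genes 29.4% were higher and 31.6% lower with all libraries. Cebpa, a factor of the myeloid lineage, stood at 712, 745, 726 and 632 CPM untreated and at 76.3, 130.2, 103 and 129.8 CPM with LPS, a change of -2.704 ± 0.14. Maf, a transcription factor of macrophages, went from 129.8, 115, 204 and 375 to 198, 361, 617 and 583 CPM, a change of 1.11 ± 0.24 with overlapping groups. Mertk, a receptor for apoptotic cells, fell by 1.57 ± 0.20. Spi1 (PU.1), the master factor of macrophages, and Adgre1 (F4/80) rose by 1.06 ± 0.11 and 0.71 ± 0.104, the second at 0.14 with total-count scaling (adjusted p = 0.343). Csf1r, the receptor of the growth factor in the culture, was not called, at 0.06 ± 0.13. Without untreated replicate 4 it was called lower, at -0.11 (adjusted p = 0.0409).

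Receptors for nucleotides and metabolites held 8 higher and 6 lower genes of 16 (median 0.26), with large changes on both sides, and 7 and 7 with total-count scaling (median -0.32). The adenosine receptor gene Adora2a, which raises cyclic AMP, stood at 0.956, 1.29, 0.128 and 0.337 CPM untreated and at 209.6, 145, 156 and 161 CPM with LPS. Hcar2, a receptor of nicotinic acid and ketone bodies, stood at 0.478, 0, 0.256 and 0 CPM untreated and 90.4, 68.7, 70.1 and 73.1 CPM with LPS, and the rises were 7.77 ± 0.296 and 8.25 ± 0.298. Gpr84, a receptor of medium-chain fatty acids, rose by 4.41 ± 0.22, Adora2b by 3.46 ± 0.21 and P2ry14, a receptor of UDP-sugars, by 2.82 ± 0.23. Cnr2, the cannabinoid receptor of immune cells, went from 42.6, 35.9, 47.96 and 21.9 to 0.457, 0.347, 0.374 and 0.3898 CPM and Gpr183, the receptor of an oxysterol, from 24.5, 19.2, 16.4 and 18.9 to 0.304, 0.694, 0.561 and 0.7795 CPM. Their changes of -6.49 ± 0.27 and -5.07 ± 0.35 rest on 9 and 13 counts over the LPS libraries.

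Some of the largest changes lay outside these lists. Sox4, a developmental transcription factor, went from 16.8, 16.9, 13.6 and 26.6 to 0.457, 0.173, 0 and 0 CPM, a change of -6.56 ± 0.40 with 4 counts over the LPS libraries. Arhgap19, a GTPase-activating protein gene, went from 172, 127, 176 and 153 to 3.197, 2.77, 4.49 and 2.53 CPM, a change of -5.596 ± 0.17 (edgeR adjusted p = 1.88e-11). Every LPS library was far below the lowest untreated one. Zfp395, Pald1, Enc1 and Rassf3 fell by 5.55 ± 0.25, 4.89 ± 0.23, 4.41 ± 0.21 and 4.37 ± 0.14. Tmem37 went from 132, 89.6, 143 and 643 to 7.76, 5.38, 6.73 and 7.99 CPM, a change of -4.89 ± 0.499, and stood at -4.11 without untreated replicate 4, its highest library. Cd69, an early activation marker of leukocytes, rose from 0.956, 1.09, 2.56 and 3.04 to 569, 674, 998 and 742 CPM, by 8.81 ± 0.31. Edn1, which encodes the vasoconstrictor endothelin, had no count untreated and reached 16.4, 21.7, 30.1 and 17.7 CPM, a rise of at least 237-fold. Lipg, an endothelial lipase gene, and Lhx2, a homeobox gene, had 3 and 1 counts over the untreated libraries. With LPS, Lipg reached 52.5, 101, 285 and 148 CPM and Lhx2 reached 22.4, 42.3, 57.2 and 45.6 CPM. Their ratios were 1568 (536 to 7605) and 1364 (244 to 53911), with 95% counting intervals in parentheses. Of 214 tested long noncoding genes 53 were higher and 62 lower, shares not above those of all tested genes (29.4% and 31.6%). Mir155hg, the host gene of the microRNA miR-155 and chosen after its values were seen, had 2 counts untreated and 40.6, 13.9, 22.1 and 19.5 CPM with LPS, a ratio of 414 (114 to 3425).

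The LPS effect was also compared with that in complete medium, which asks whether the absence of serine changed the response of a gene. At an adjusted p under 0.05 the difference was called for 0 of 11004 genes (0%) by edgeR and for 8 by DESeq2. At an unadjusted p under 0.05 edgeR had 465 genes, a share below the 0.05 that chance gives when no gene differs. That number was 253 without the replicate block and 868 without untreated replicate 4. The smallest adjusted p was that of Cxcr4, which changed by -2.78 ± 0.11 without serine and by -3.85 ± 0.12 with it, a difference of 1.07 ± 0.15 (edgeR adjusted p = 0.0809). LPS brought Cxcr4 to 97.8 ± 21.9 CPM (SD, n = 4) without serine and 45.5 CPM on average with it, from 664 ± 79.9 and 657 CPM. Arl11 and Trp53inp1, a p53 target, showed differences of 0.98 ± 0.196 and 0.93 ± 0.19, having fallen by 1.97 ± 0.14 and 1.32 ± 0.14 without serine. The AP-1 family gene Jdp2 showed -0.78 ± 0.16, having risen by 3.28 ± 0.12. The adjusted p of these 3 was 0.72. Without LPS replicate 3 the difference of Cxcr4 was called (adjusted p = 0.0316), and no other gene's was. No difference was called without the replicate block (Cxcr4 edgeR adjusted p = 0.913), with total-count scaling or without all of replicate 1. The smallest edgeR adjusted p of any gene in the last 2 fits was 0.431 and 0.820. Leaving out untreated replicate 1, 2 or 3 or LPS replicate 1, 2 or 4 also gave no call, at 0.105 to 0.384. Without untreated replicate 4 the difference was called for 8 genes, among them Cxcr4 (adjusted p = 0.000228), Trp53inp1 (0.00846), Jdp2 (0.0129) and the splicing factor gene Srsf6 (0.0129). The LPS effect on Il1b was 9.68 ± 0.31 without and 10.595 ± 0.31 with serine, a difference of -0.91 ± 0.59 (adjusted p = 0.828), and that on Psat1 1.85 ± 0.15 and 1.57 ± 0.15, a difference of 0.28 ± 0.21 (0.828).

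In the authors' deposited table for the LPS comparison without serine, 11573 genes were tested, and 2213 were marked higher and 1968 lower. The highest adjusted p of a marked gene was 0.00999, whereas genes were called here at an adjusted p under 0.05. The numbers of marked and called genes are therefore not like for like. Of the marked genes that were also tested here, 2152 of 2152 were called higher and 1912 of 1914 lower, with 0 in the opposite direction. Both sets come from the same libraries and the marks are the stricter, so this overlap is not an independent check.

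**Figure D5:**
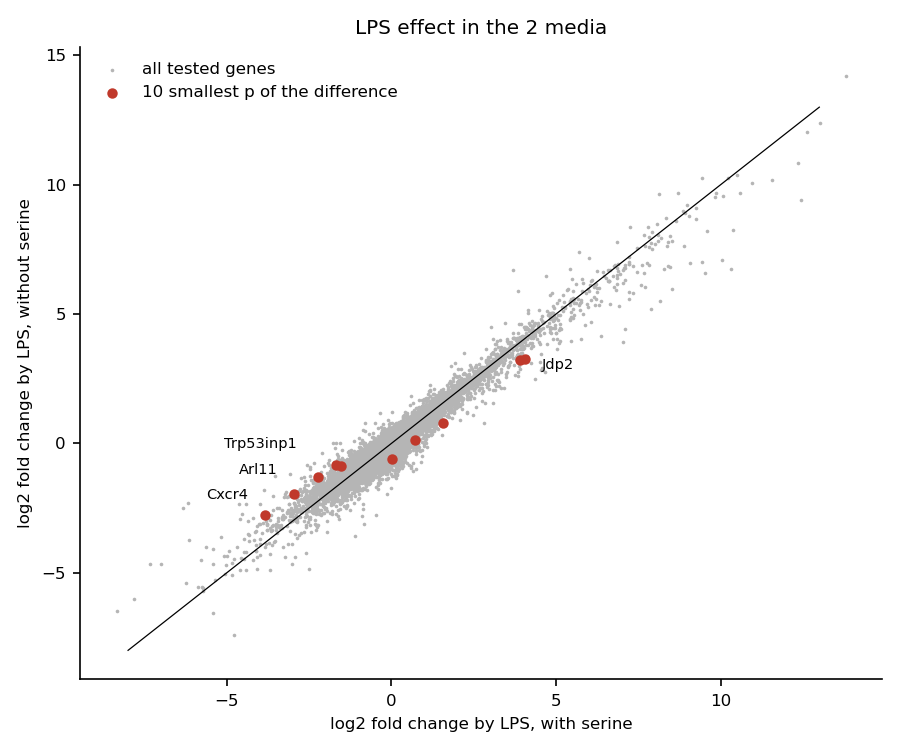
Log2 fold change with LPS without serine (vertical axis) against that with serine (horizontal axis) for the 11004 tested genes in grey, with the 10 genes of smallest p for the difference in red, 4 of them named, and a line where both are equal. Cxcr4, Arl11 and Trp53inp1 lie above the line among genes that fell, and Jdp2 below it among genes that rose.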

How the data were processed

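Gene counts were deposited by the authors for 16 libraries of bone marrow-derived macrophages, made with a kit that does not mark strand and sequenced with 75 bp reads, per the labels. The submitters' processing notes name Trimmomatic 0.33, STAR, SAMtools, HTSeq, edgeR and the build mm10. The log2 fold changes and adjusted p-values in the authors' deposited table were used only for a comparison of calls. The deposited count table holds 43430 gene IDs, of which 42462 matched a GENCODE M21 symbol. In all 24 columns of per-sample values that match no sample here were not used.

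Counts were fitted with edgeR 4.0.16 in R 4.3.3 by the robust quasi-likelihood test (TMM factors, filterByExpr, 4 groups and a replicate block, all 16 libraries). Genes were called at an adjusted p of 0.05, and log2 levels used a prior count of 2. The block was used because same-numbered libraries deviated together (r = 0.125 to 0.397, against -0.251 to 0.0951 for different numbers). Among 28 pairs of libraries none agreed within sampling noise (lowest chi-square per degree of freedom 3.09). Counting intervals are at 95% and cover counting error only. Alternatives were no block, only the 8 libraries without serine, DESeq2 1.42.0, total-count scaling, no filter, and leaving out libraries.

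The members and gene lists were chosen with earlier results of these data known. Named genes are marked list members, up to 3 further members of each list per direction, the 25 largest rises and 25 largest falls with separate groups and at least 10 CPM, the 10 largest changes of CPM each way, and up to 10 genes with the smallest p for the difference between media. Rps18, Rpl41, Ndufa2, Atp5e and Mir155hg lie outside that rule and were chosen after their values were seen. Some genes that the rule names are not reported here.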

Additional observations from a re-analysis of the deposited data

Results flagged for a closer look

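A library was taken to stand apart when its gap to the nearest of the other 3 libraries of its group, over the range of the group, passed Dixon's 95% limit for 4 values. Of 379 groups of values with a library at 10 CPM or more 38 did so, and chance alone gives about 1 in 20 groups. The groups come from the same 8 libraries and are not independent, so the 38 were not tested against that rate. Of the 38, 10 were in untreated replicate 4, the shallow library. A further 4, all in that library, are Rps18, Rpl41, Ndufa2 and Atp5e, which were picked after these values were seen, so that the rate of chance does not apply to them. Nor does it apply to Tmsb4x and Gm42418, which are among the 10. They were named for a fall in mean CPM that rested on untreated replicate 4. Values are CPM, with the range of the other 3 libraries after each.

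In the untreated group replicate 1 stood apart as the highest library for Tlr2 (679 against 331 to 369.7), Irf7 (456 against 65.6 to 91.2), Acod1 (128 against 20.6 to 37.99), Lcn2 (13.1 against 6.04 to 6.92), Nfe2l2 (252 against 197 to 204), Cd83 (29.2 against 15.2 to 17.1) and H2-Aa (96.9 against 39.2 to 48.6). In the untreated group replicate 4 stood apart as the lowest library for Tlr13 (232 against 419 to 425). In the untreated group replicate 4 stood apart as the highest library for Pycard (90.4 against 26.9 to 27.8), Saa3 (1977 against 103 to 422), Lyz2 (22148 against 10031 to 11704), Tfeb (97.1 against 60.2 to 63.2), Psmb8 (223 against 74.3 to 82.2), Spi1 (575 against 339 to 354), Tmem37 (643 against 89.6 to 143), Tmsb4x (9567 against 2095 to 2539), Rps18 (687 against 97.2 to 136), Rpl41 (1516 against 144 to 201), Gm42418 (8895 against 851 to 1499), Ndufa2 (376 against 33.5 to 34.7) and Atp5e (753 against 51.2 to 53.6).

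In the LPS group replicate 1 stood apart as the lowest library for Tlr13 (137 against 164 to 169), Zfp36l2 (77.9 against 115 to 122), Atf3 (1008 against 1194 to 1222) and Ctsd (9062 against 12133 to 12694). In the LPS group replicate 1 stood apart as the highest library for Rel (185 against 126 to 135), Klf6 (1796 against 1349 to 1410.3), Arg2 (13.1 against 2.95 to 4.67), Ptgs2 (1845 against 1006 to 1132), Tfec (119 against 63.1 to 70.4), Cdkn1a (2508 against 2084 to 2149.8), Mdm2 (930.2 against 675 to 713), Ciita (22.5 against 7.21 to 8.32) and H2-Aa (118 against 59.99 to 67.8). In the LPS group replicate 2 stood apart as the lowest library for Tlr1 (94.1 against 151 to 156), Irf7 (671 against 937 to 978), Saa3 (1392 against 2103 to 2239), Apoe (1769 against 3917 to 4178), Msr1 (1043 against 1239 to 1261) and Tmsb4x (2582 against 3024 to 3067). In the LPS group replicate 2 stood apart as the highest library for Enc1 (15.3 against 9.34 to 10.1). In the LPS group replicate 4 stood apart as the lowest library for Il12b (45.2 against 71.7 to 72.5).

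The TMM factor of untreated replicate 4 was 1.035, against 1.24 to 1.27 in untreated replicates 1 to 3.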

How the results depend on the processing

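Calls with LPS numbered 3237 higher and 3482 lower. Without the replicate block they were 2984 and 3266, with only the 8 libraries 2551 and 2421, with DESeq2 3370 and 3480, and with no filter 3518 and 2921 of 21180 genes. Leaving out 1 library at a time gave 3013 to 3854 higher and 3042 to 3947 lower, the most without untreated replicate 4. Total-count scaling gave 1788 and 6809. Genes whose LPS effect differed between media numbered 0, 8 with DESeq2, 0 to 8 on leaving out 1 library (8 without untreated replicate 4, 1 without LPS replicate 3), and 1 without replicate 4. Of 233 genes examined singly, the fit without the replicate block left 221 on the same side of the threshold in the same direction, 8 lost their call, 3 gained one, and Marco turned to -0.043. DESeq2 kept 233 of 233. With total-count scaling 13 of them lost their call and 10 gained one, beside the 8 that turned direction.

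Genes that turned direction lay near 0 or rested on untreated replicate 4, and of them H2-Aa and Mrc1 were called with all libraries. Total-count scaling turned Irf8 (-0.36), Pycard (-0.42), Psph (-0.071), H2-Aa (-0.054), Marco (-0.48), Mrc1 (-0.13), Csf1r (-0.52) and Srsf6 (-0.42). Without untreated replicate 4, and without all of replicate 4, values were 0.0961 and 0.0922 for Lyz2, 0.116 and 0.114 for Ldha, 0.0744 and 0.0840 for Apoe, 0.212 and 0.164 for C1qa, -0.109 and -0.120 for Csf1r, 0.302 and 0.299 for Tmsb4x, 0.201 and 0.171 for Rps18, 0.185 and 0.172 for Rpl41, 0.536 and 0.439 for Gm42418, 0.218 and 0.225 for Ndufa2, and 0.148 and 0.138 for Atp5e. Ldha stood at 0.0136 with no filter. Over all fits that left out libraries, values ran from -0.468 to 0.00148 for Egr1, -0.0808 to 0.545 for Pycard, -0.126 to 0.324 for Marco, -0.120 to 0.129 for Csf1r, -0.153 to 0.0961 for Lyz2, -0.162 to 0.116 for Ldha, -0.256 to 0.0840 for Apoe, -0.242 to 0.212 for C1qa, -0.523 to 0.302 for Tmsb4x, -0.809 to 0.201 for Rps18, -1.23 to 0.185 for Rpl41, -0.652 to 0.536 for Gm42418, -1.43 to 0.225 for Ndufa2 and -1.71 to 0.148 for Atp5e. The cause was not tested. Depth limits genes with few counts in the shallow untreated replicate 4.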

Other observations

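Replicate 1 differed from replicates 2 to 4 in how strongly some genes stood with LPS. Its level was 4.25 times the mean of the other 3 LPS libraries for Cxcl3, 3.02 times for Cxcl2, 2.94 times for Ciita, 2.68 times for Cxcl1, 2.25 times for Tnfsf9 and 2.20 times for Mir155hg. It was 0.295 times that mean for Lipg, 0.346 for Nos2, 0.381 for Maf, 0.421 for Ccl12, 0.463 for Lhx2 and 0.473 for Cmpk2. These genes were picked after their values were seen, and the ratios have no test, since replicate 1 is a single library in the group.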
